A study of Rattus norvegicus with 4 samples.

Results

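The genes described here encode Fc receptors, C-type lectins, Siglecs and the signalling proteins behind them, as measured in NR8383, a line of rat alveolar macrophages established from a lung wash. They are Fcgr2b, Fcgr3a, Fcer1g, Tyrobp, Trem2, Clec7a, Siglec1, Siglec5, Syk and Card9, taken by symbol from the 16581 rat genes that the array's RefSeq accessions name. The 10 genes were measured by 13 of 45598 probes. All 4 cultures were kept for 4 h with NRCWE055, a carbon nanotube that is single-walled and pristine, at a dose of 11 cm2 of tube surface on each cm2 of culture, after 20 passages of the line. The study design counts them as biological replicates, and each was hybridised to 1 single-colour array. Cultures without nanotubes, which the design includes, are not analysed here, and no value below measures a response. For replicates 2, 3 and 4 the source name gives a nanotube number that differs from the title, and replicate 1 alone has both in accord. The values of the 10 genes are therefore given array by array, and those of other genes as means.

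Macrophages recognise antibody-coated particles through Fc receptors and sugar or lipid surfaces through lectins, Siglecs and TREM receptors. Activating receptors pass the signal through an immunoreceptor tyrosine-based activation motif (ITAM), which for many of them sits on the partner chains FcR gamma (Fcer1g) or DAP12 (Tyrobp). SRC family kinases phosphorylate the motif, the kinase SYK docks on it, and CARD9 carries part of the signal to NF-kB. Inhibitory receptors such as Fc gamma RIIB recruit phosphatases that oppose SYK. Alveolar macrophages use these receptors to take up opsonised particles and fungi.

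Each of the 10 genes stood well above background on every array, as 52.4% of the named genes did. Feature extraction sets that flag for a spot, and a probe was called detected when most of its usable spots carried it. No spot of any gene probe was saturated. The probes of Fcgr3a, Siglec1, Siglec5, Syk and Card9 and the dimmer Clec7a probe have 1 spot per array. Spot noise could not be measured on them. Levels are log2 of the processed signal over the 75th percentile of the same array, taken over the probes that every array detected. It stood at 1756 on replicate 1, 2631 on replicate 2, 2861 on replicate 3 and 1873 on replicate 4. Scaled to the lower 75th percentile over all probes, gene levels were higher by a median of 3.61. A level describes its own probe, so levels are not ranked between genes. In bulk RNA, fewer expressing cells and less RNA per cell cannot be told apart.

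Among Fc receptors, both the inhibitory and the activating low-affinity IgG receptor were measurable. Fcgr2b, the inhibitory receptor, gave processed signals of 4768, 7907, 8727 and 5627 on replicates 1 to 4. Scaled to each array, its levels were 1.44, 1.59, 1.61 and 1.59, a mean of 1.56 ± 0.08 (SD, n = 4). Replicate 1 was low and the other 3 lay close together. The SD of the other 3 levels was 0.0127.

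Fcgr3a, an activating receptor that signals through the FcR gamma chain, gave signals of 12155, 15948, 18534 and 12939 on replicates 1 to 4. Its levels were 2.79, 2.60, 2.70 and 2.79, a mean of 2.72 ± 0.09 (SD, n = 4), and replicate 2 was the lowest. The SD of the other 3 levels was 0.0544. The related receptors Fcgr1a, the high-affinity IgG receptor, and Fcgr2a, another low-affinity receptor, were detected on every array at 1.82 ± 0.04 and 5.02 ± 0.07 (SD, n = 4). Low-affinity Fc gamma receptors resemble one another in sequence, and cross-hybridisation between their probes was not tested. Fcgrt, the neonatal Fc receptor that recycles IgG, was at 0.73 ± 0.11.

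The ITAM adaptor genes were measured far above background on every array, with raw spot signals of 1296 to 1646 times the local background for Fcer1g and of 2142 to 2806 times for Tyrobp. Fcer1g, the FcR gamma chain, gave signals of 49163, 65827, 75250 and 53940 on replicates 1 to 4, and levels of 4.81, 4.64, 4.72 and 4.85 (mean 4.75 ± 0.09, SD, n = 4). Its usual partners in mast cells, the alpha and beta chains of the high-affinity IgE receptor (Fcer1a and Ms4a2), were well above background on no array. Their signals ran from 3.31 to 11.5 for Fcer1a and from 3.27 to 3.75 for Ms4a2.

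Tyrobp, which encodes DAP12, gave signals of 102150, 123387, 130438 and 101153 on replicates 1 to 4. Its levels were 5.86, 5.55, 5.51 and 5.75, a mean of 5.67 ± 0.17 (SD, n = 4). Replicates 1 and 4 were high and replicates 2 and 3 low, with a gap between the pairs. Hcst, the gene of the related adaptor DAP10, was at 2.07 ± 0.05.

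Trem2, a DAP12-coupled receptor for lipids and lipoproteins, gave signals of 78911, 112670, 119592 and 78278 on replicates 1 to 4. Its levels were 5.49, 5.42, 5.39 and 5.39, a mean of 5.42 ± 0.05 (SD, n = 4). Replicate 1 was slightly high, and the SD of the other 3 levels was 0.0202. Other DAP12-coupled receptors were detected too. Trem1, an amplifier of inflammation, was at 0.34 ± 0.10, and Clec5a, a lectin-like receptor, was at -4.29 ± 0.07 (SD, n = 4 each). Cd300lb, named after its values were seen, was not well above background on any array.

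**Figure D1:**
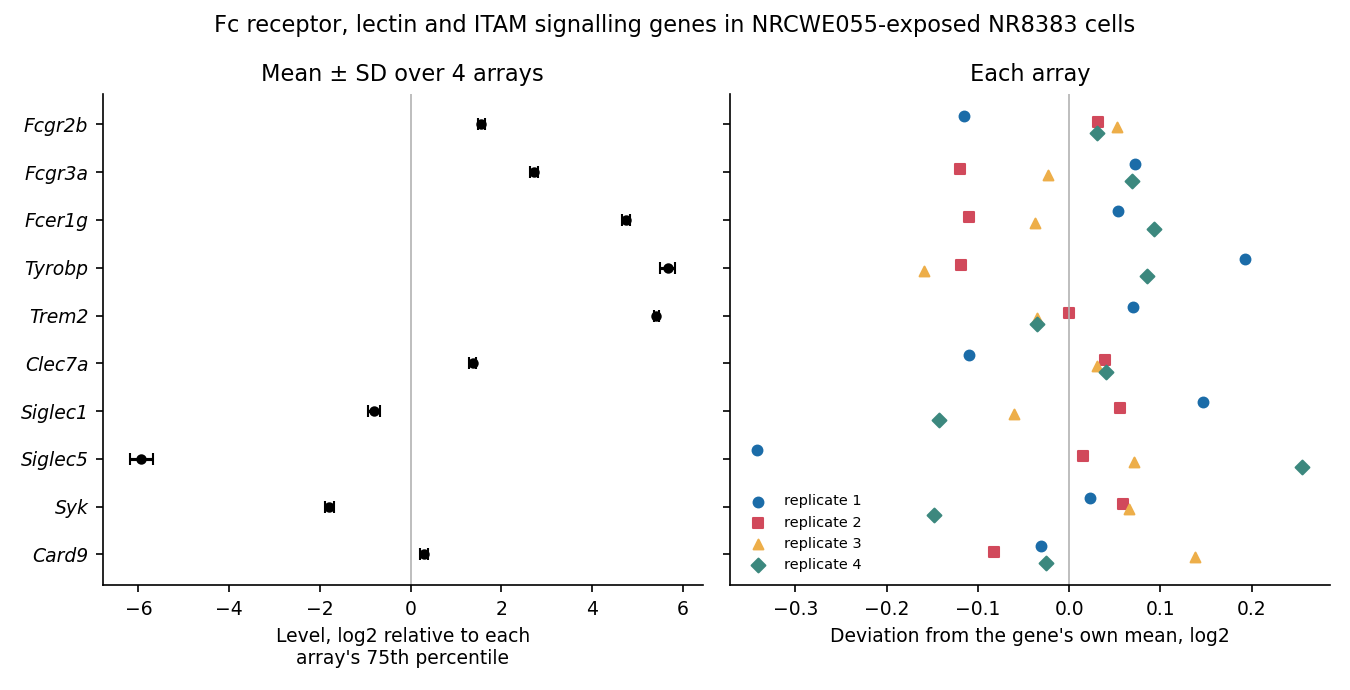
Left, the mean level of each gene with its SD over the 4 arrays (log2 over the 75th percentile of detected probes on the same array). Right, the deviation of each array from the gene's own mean (log2), with 1 symbol per replicate. The SD is 0.25 for Siglec5 and 0.05 for Trem2, and Tyrobp is high on replicates 1 and 4.

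Dectin-1, the receptor for fungal beta-glucans encoded by Clec7a, was read by 2 probes. The brighter probe (A_44_P1085353) was at 2.18, 2.33, 2.25 and 2.33 on replicates 1 to 4, and the dimmer one (A_64_P141160) at 0.34, 0.50, 0.56 and 0.50. They lay 1.80 apart on average, a 3.48-fold difference in signal, and both were lowest on replicate 1. The gene level, the mean of both probes, was 1.26, 1.41, 1.40 and 1.41 on replicates 1 to 4 (mean 1.37 ± 0.07, SD, n = 4). The SD of the levels on the other 3 arrays was 0.00537. On replicate 3 the brighter probe was lower, and the dimmer one higher, than on replicates 2 and 4.

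Of 16 other C-type lectin genes measured, 8 were above background on all arrays and 8 on none. Mrc1, the mannose receptor, was at -2.55 ± 0.22 (SD, n = 4). Clec4e and Clec4d, the receptors Mincle and MCL that also signal through the FcR gamma chain, were not well above background. Signals were 3.69 to 7.03 for Clec4e and 5.38 to 10.8 for Clec4d, taking whichever of its 2 probes was brighter on each array. Clec10a, a galactose-type lectin, was not well above background either.

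The 2 Siglec genes differed in how firmly they were measured. Siglec1, which encodes sialoadhesin, a sialic acid receptor found on mouse alveolar macrophages, gave signals of 1114, 1568, 1573 and 973 on replicates 1 to 4. Its levels were -0.66, -0.75, -0.86 and -0.95, a mean of -0.80 ± 0.13 (SD, n = 4). Its raw spot signal was 23.5 to 39.3 times the local background.

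Siglec5, another sialic acid-binding receptor gene, was close to the detection limit. Its brighter probe (A_64_P165666) gave signals of 22.7, 43.6, 49.2 and 36.7 on replicates 1 to 4, and its raw spot signal was 2.33 to 2.61 times the local background. That probe set the gene level of -6.27, -5.92, -5.86 and -5.68 (mean -5.93 ± 0.25, SD, n = 4). Replicate 1 was the lowest, and the SD of the other 3 levels was 0.126. With normexp correction of median signals the mean was -4.35, and replicates 2 and 3 were the lowest, at -4.50 and -4.53. Replicate 1 was then at -4.24. The other probe (A_44_P1100971) was well above background on replicate 2 alone, with signals of 10.9, 22.3, 19.6 and 11.6, although a looser flag marked it present on all 4 arrays. Of the other Siglec genes listed, 3 had a named probe and 2 of them were detected on all arrays, whereas Siglec10 and Cd33 had none.

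**Figure D2:**
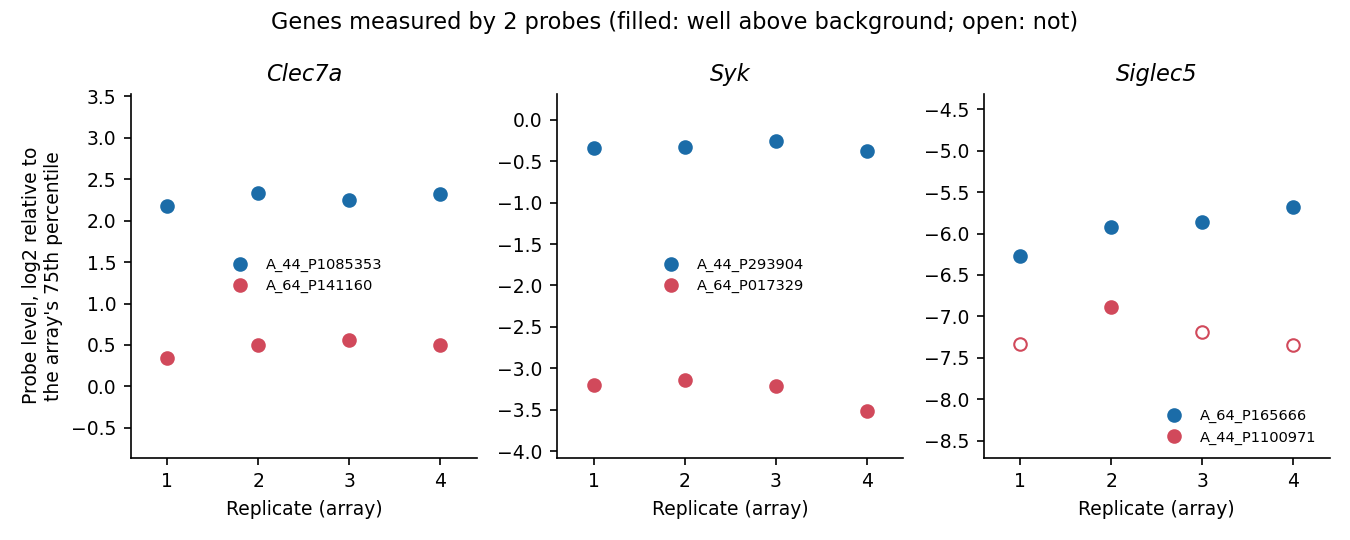
Level of each probe (log2 relative to the array's 75th percentile of detected probes) on each replicate for the 3 genes read by 2 probes. Symbols are filled where well above background and open where not. The Clec7a and Syk pairs stay 1.80 and 2.94 apart on average, and the dimmer Siglec5 probe is well above background on replicate 2 alone.

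Syk, the kinase that docks on phosphorylated ITAMs, was also read by 2 probes, with the widest gap of the 3 probe pairs. The brighter probe (A_44_P293904) was at -0.34, -0.33, -0.25 and -0.37 on replicates 1 to 4, and the dimmer one (A_64_P017329) at -3.20, -3.15, -3.21 and -3.51. The gap averaged 2.94 ± 0.14 (SD, n = 4), a 7.69-fold difference in signal. The gene level was therefore -1.80 ± 0.10 as a mean of both probes and -0.32 by the brighter one. Replicate 4 was the lowest on both probes, and the SD of the gene level on the other 3 arrays was 0.0235. Zap70, the relative of Syk used by T and NK cells, was not well above background, with signals of 3.52 to 5.63.

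Card9, the adaptor that links SYK to the BCL10 and MALT1 complex, gave signals of 2114, 3057, 3873 and 2264 on replicates 1 to 4. Its levels were 0.27, 0.22, 0.44 and 0.27 (mean 0.30 ± 0.10, SD, n = 4). Replicate 3 was the highest, and the SD of the other 3 levels was 0.0314. Bcl10 was at -0.41 ± 0.14, and Malt1 had no named probe. In all, 6 of 7 measured genes of this branch were detected on all arrays.

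The wider pathway was read from lists of 112 other genes, of which 93 had a named probe and 66 (71.0%) were detected on all arrays, beside 52.4% of all named genes. The lists were chosen with earlier results of these data known, so these shares are descriptive only. Upstream of SYK, 10 of 13 SRC family kinases and their regulators were detected. Lyn and Fgr, SRC family kinases of myeloid cells, were at 1.65 ± 0.04 and -0.01 ± 0.06 (SD, n = 4 each). Ptprc, the CD45 phosphatase that keeps these kinases active, was at -0.61 ± 0.07. Src itself was not well above background on any array.

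Downstream of SYK, 18 of 23 genes were detected. Plcg2, a phospholipase that releases calcium, was at -1.52 ± 0.08, Vav1, an exchange factor for RAC, at -1.10 ± 0.10, and the kinase gene Btk at -2.52 ± 0.08 (SD, n = 4 each). The adaptor genes Lat, Lat2 and Blnk were well above background on no array, and neither were Zap70 and Nfatc2. Inhibitory receptors and phosphatases were detected for 9 of 11 genes. Ptpn6, the phosphatase SHP-1, was at 5.14 ± 0.03, Inpp5d, the lipid phosphatase SHIP-1 recruited by Fc gamma RIIB, at 0.06 ± 0.06, and Sirpa, a receptor for CD47, at 1.08 ± 0.04. The 2 probes averaged for Sirpa lay 5.63 apart on the log2 scale.

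**Figure D3:**
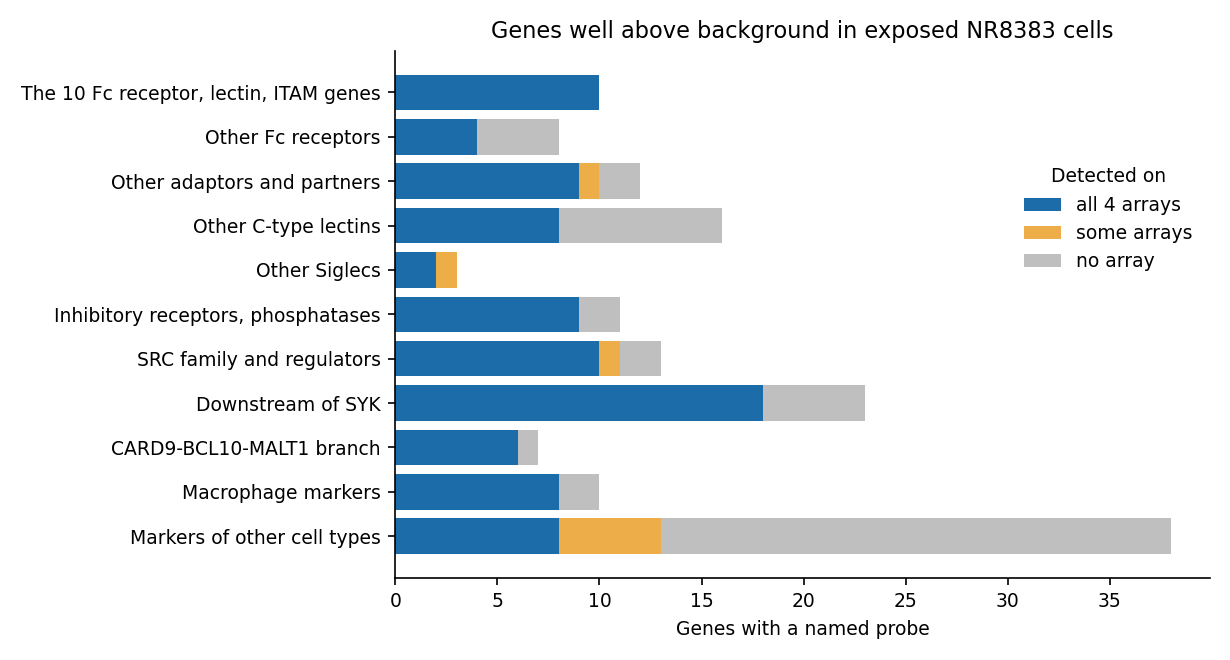
Number of genes with a named probe in each list, split by whether they were well above background on all 4 arrays, on some or on none. All 10 Fc receptor, lectin and ITAM genes are detected on all arrays, against 66 of 93 genes over the pathway lists and 8 of 38 markers of other cell types. Members and lists were chosen with earlier results of these data known.

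Cell identity was checked on the same arrays. Macrophage markers were detected for 8 of 10 genes, and Adgre1 and Marco were not well above background. Of 38 measured markers of B, T and NK cells, mast cells, granulocytes, platelets and structural lung cells, 8 (21.1%) were detected on all arrays. They were Gp9 and Itgb3, which make up 2 of 3 platelet markers, and Pax5, Cd3d, Nkg7, S100a8, Prg2 and Cdh5. Their mean levels, in that order, were -3.88, -4.43, -2.91, -4.94, -2.30, -4.90, -6.19 and -5.49. Their part in the levels of the 10 genes was not tested. No mast cell or basophil marker was detected on all arrays. Of the ITAM chains of lymphocyte receptors, Cd3e, Cd3g, Cd247 and Cd79b were well above background on no array, and Cd3d was at -4.94 ± 0.27 (SD, n = 4).

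The 4 cultures gave close values for these genes. None of the 10 spanned over 2-fold between arrays, where 1.11% of detected genes did. Their SDs ran from 0.0494 for Trem2 to 0.250 for Siglec5, with a median of 0.0934 beside 0.0926 over all 8685 detected genes. With no filter on dim probes the median over all genes was 0.244. The SD of Siglec5 was above the 90th percentile over all detected genes, 0.236. The span between arrays was widest for Siglec5, at 0.60 (1.51-fold). It was 0.35 for Tyrobp and 0.29 for Siglec1, equal to 1.28-fold and 1.22-fold. For 2 of the 10 genes, Fcgr2b and Clec7a, 1 array stood apart from the others by Dixon's ratio, as it did for 6.13% of detected genes. For the rest of the 10 genes no array stood apart. The SDs of 3 arrays given for single genes leave out the farthest array, a choice that by itself tends to make them smaller. Replicates 2 and 3 were the closest pair, with a median absolute difference of 0.0482 over the 10 genes, and replicates 2 and 4 the farthest, at 0.194. Over all detected genes those pairs differed by 0.0743 and 0.109.

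Probes printed several times per array allowed a test of whether arrays differed by more than spot noise. The test was limma's moderated F test over replicate spots with Benjamini-Hochberg adjustment over all 1742 such probes that were detected. It compares arrays, each of which carries 1 culture, and not conditions. Of the 5 probes of these genes, 2 differed between arrays, where 42.8% of all tested probes did. Among probes printed 10 times, 65.7% differed, and those of Tyrobp and Fcgr2b, but not that of Trem2, were called.

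The Tyrobp probe differed by up to 0.35 between arrays (limma adjusted p = 7.28e-12), with a spot SD of 0.0688 within arrays. Its lowest usable spot on replicates 1 and 4 was at 5.77 and 5.66, above the highest spot on replicates 2 and 3, at 5.64 and 5.60. On replicate 4, 6 of 10 spots were usable. The call ended under quantile normalization, where the largest difference was 0.06 (limma adjusted p = 0.220). Quantile normalization gives the same rank the same value on every array, so a difference under it reflects rank alone. In the spot test single spots were quantile-normalized, whereas for gene levels probe means were, so differences from both need not match. The Tyrobp level from probe means was 5.67 on both replicates 1 and 4.

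The Fcgr2b probe differed by up to 0.17 (limma adjusted p = 0.00883), with a spot SD of 0.105. Its spots overlapped between arrays, running from 1.34 to 1.59 on replicate 1 and from 1.44 to 1.76 on the others. Without replicate 1 the largest difference was 0.02 (limma adjusted p = 0.972), and with normexp correction of median signals the call also ended (limma adjusted p = 0.484).

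The Trem2 probe differed by 0.11 and was not called (limma adjusted p = 0.0874). Under quantile normalization of spots it differed by 0.18 and was called (limma adjusted p = 0.000708). Without replicate 2 it was also called (limma adjusted p = 0.0380). The probes of Fcer1g and Clec7a with 2 spots per array differed by 0.20 and 0.15 and were not called (limma adjusted p = 0.234 and 0.455).

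**Figure D4:**
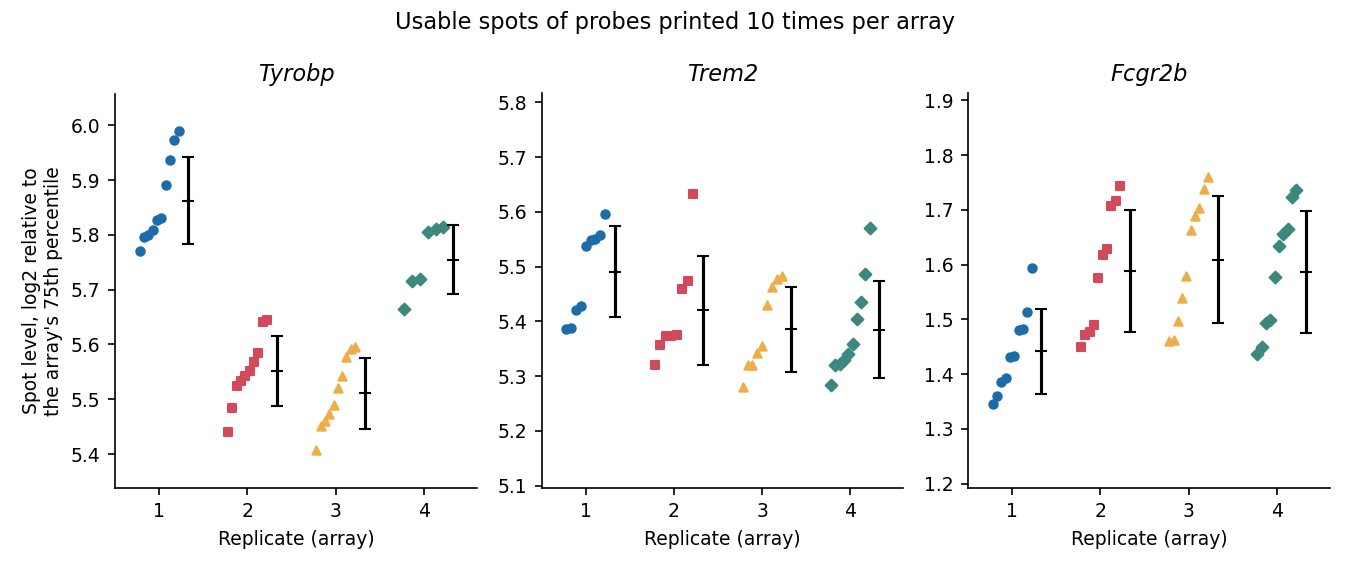
Each usable spot of the Tyrobp, Trem2 and Fcgr2b probes on each array (log2 relative to the array's 75th percentile of detected probes). The mean and SD of the spots are in black. Every panel spans the same range. Tyrobp spots on replicates 1 and 4 lie above all spots on replicates 2 and 3, and the spots of the other genes overlap between arrays.

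The Tyrobp level was higher on the arrays of lower overall brightness. Replicates 1 and 4, the dimmer arrays by their 75th percentile, gave Tyrobp a mean level of 5.81, against 5.53 on the brighter replicates 2 and 3, a difference of 0.28. The median of this difference was 0.25 over the 100 brightest genes, which include Tyrobp and Trem2, and -0.00216 over all detected genes. The lower and upper quartiles over the 100 brightest genes were 0.12 and 0.39, and Trem2 was below both, at 0.03. The part of array brightness in the Tyrobp result was not tested. Fcer1g and Fcgr3a were also higher on both dimmer arrays than on both brighter ones, by 0.15 and 0.14 on average, a pattern that 21.3% of detected genes shared. Fcgr2b and Syk were lower on both dimmer arrays, as were 19.9% of detected genes. With normexp correction these shares were 45.5% and 10.8%. For Fcgr2b only replicate 1 was clearly lower, since replicate 4 was at 1.5868 and replicate 2 at 1.5875. Fcgr2b lost its order under quantile normalization and Syk with normexp correction. Under quantile normalization of probe means Fcgr3a alone of the first 3 kept its order, and Trem2 was lower on both dimmer arrays by 0.21 on average.

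**Figure D5:**
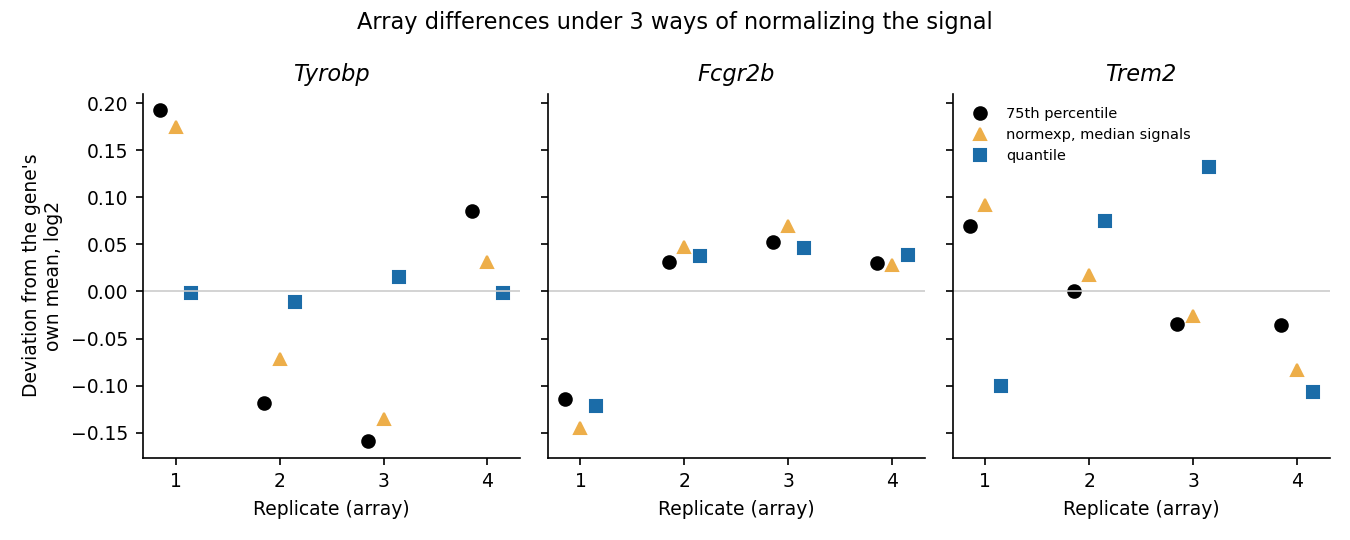
Deviation of each array from the gene's own mean (log2) for Tyrobp, Fcgr2b and Trem2 with scaling to the 75th percentile, normexp correction of median signals, or quantile normalization of probe means. The Tyrobp differences nearly vanish with quantile normalization, Fcgr2b stays low on replicate 1 in all 3, and Trem2 changes sign on replicates 1 and 3 with quantile normalization.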

How the data were processed

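Total RNA of 4 exposed cultures was measured on 1-colour (Cy3) Agilent arrays. The authors read the spots with Agilent Feature Extraction 11.0.1.1, per the submitters' processing notes. The deposited processed signal is an intensity from which, per the file headers, background with its spatial trend had been removed array by array, without normalization between arrays. The deposited raw median intensities of spot and local background, and other columns of flags of 0 or 1 per spot as deposited, were also used.

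From these, outlier spots (427 to 714 per array) were dropped from the 58717 spots that are not controls. Log2 signals were averaged per probe, and its own 75th percentile, taken over 17807 probes that every array detected, was subtracted from each array. Probes were named by RefSeq accession, without version, through a GRCr8 gene table, which named 21109 probes. A gene's level is the mean of its detected probes. The tests used limma 3.58.1 in R 4.3.3 at an adjusted threshold of 0.05, and the F test was tested on simulated data. Figures used matplotlib 3.10.9.

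The members, gene lists and alternatives were chosen with earlier results of these data known. Named genes were the 10 members and 24 fixed pathway genes, whatever their values. A fixed pathway gene is not reported here. Pathway genes named beyond those were chosen after their values were seen. Alternatives were normexp correction (offset 50) of median signals, other scalings, detection rules and probe rules, kept outlier spots, and leaving out each replicate. The number of arrays, 4, limits precision. All lay on the same slide and share a scan time, per the file headers, so neither could be tested as a batch. A planned search for protein motifs was not run, and protein and probe sequences are not used here.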

Additional observations from a re-analysis of the deposited data

Results flagged for a closer look

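Levels of the 10 genes and of 18 detected pathway genes were searched for a single array standing apart, using the 95% critical value of Dixon's ratio for 4 samples. Of these 28 series 3 passed, where chance alone gives about 1.4. Over all 8685 detected genes, 532 (6.13%) passed. Fcgr2b stood at 1.44 on replicate 1, against 1.59 to 1.61 on the others. Clec7a stood at 1.26 on replicate 1, against 1.40 to 1.41 on the others, and both of its probes were lowest there. The ratio was taken on the mean of its 2 probes and not on each probe. On the brighter probe replicate 3, at 2.25, lay between 2.18 on replicate 1 and 2.33 on replicates 2 and 4. Trem1 stood at 0.49 on replicate 4, against 0.28 to 0.30 on the others.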

How the results depend on the processing

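All 10 genes stayed detected under every alternative that sets a detection rule, and none spanned over 2-fold under any. The median SD of the 10 genes lay between 0.0899 and 0.109 over all alternatives. The number of their probes that differed between arrays was 2 under most settings, was 1 with normexp correction, and ran from 1 to 3 when each replicate was left out. With quantile normalization the 2 called were Fcgr2b and Trem2 in place of Tyrobp. Over all tested probes, 746 differed, against 222 with normexp correction. Of 8685 detected genes, 96 spanned over 2-fold, against 21 of 8685 with normexp correction. The genes detected differ between the other settings. The counts were 44 of 8845 without replicate 1, 163 of 8938 when detection on 3 arrays sufficed, and 777 of 10158 under the looser flag. Without any filter 2485 spanned over 2-fold, counted over named genes whether detected or not. For the spot test, median centring and the 75th percentile over all probes were chosen after seeing the data. No paired analysis was possible because the samples form 1 group. Siglec5, near background, is the least certain level.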
